A study of Mus musculus with 4 samples.

Results

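Tubulins are the building blocks of microtubules. The data set held the RNA of purified mouse migrasomes (2 libraries) and of cytosol (2 libraries), and 10 tubulin isotype genes were taken from it by symbol, out of 49568 gene symbols in all. There were 4 alpha isotypes (Tuba1a, Tuba1b, Tuba1c and Tuba4a), 5 beta isotypes (Tubb2a, Tubb3, Tubb4b, Tubb5 and Tubb6) and 1 gamma tubulin (Tubg1). A migrating cell leaves retraction fibres behind it, and migrasomes are vesicles that grow on these fibres. Both groups were labelled as total RNA of mouse origin with no treatment, strain, age or genotype named, with the cell type and the way of purification not given in the sources used here. Nothing in the labels says whether a group holds separate cultures, and the p-values cover no more than the spread among these 4 samples, and that spread may be technical.

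An alpha and a beta tubulin protein fold with the help of the chaperonin CCT and a set of cofactors, join as a dimer and add to the microtubule end. Gamma tubulin does not build the wall of the microtubule but sits in a ring complex that starts new ones. The isotypes of a class have nearly the same body and differ mainly in the acidic tail at the C-terminus, where enzymes add or remove glutamate and tyrosine. Cells also set the level of alpha and beta tubulin mRNA by autoregulation: when free tubulin rises, TTC5 recognises the first amino acids of the growing chain on the ribosome, and the mRNA being translated is degraded.

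The coding starts are shown because that recognition reads them. The first 12 bases, in capitals, are the codons for methionine, arginine, glutamate and cysteine in alpha isotypes and for methionine, arginine, glutamate and isoleucine in beta isotypes, and they are followed by the next 12 bases (5′ to 3′, GENCODE M21 transcripts on GRCm38).
Tuba1b: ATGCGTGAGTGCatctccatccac
Tuba1c: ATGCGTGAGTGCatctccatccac
Tuba4a: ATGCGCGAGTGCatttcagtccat
Tubb2a: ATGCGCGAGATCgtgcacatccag
Tubb4b: ATGAGGGAGATCgtgcacctgcag
Tubb5: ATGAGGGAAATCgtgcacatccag
Tubg1: ATGCCGAGAGAAatcatcacccta

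The alpha start was found in 4 of 4 alpha members and the beta start in 5 of 5 beta members, Tubb6 included, and Tubg1 had neither. Of 22073 mouse genes with an annotated coding start, 9 began with the alpha codons and 9 with the beta codons. Beside tubulin genes these were the model Gm49450, which overlaps Tuba1a and Tuba1b on the same strand, and Ing1. The codons were read at the coding start on the coding strand, in any synonymous spelling.

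The last 60 bases before the stop codon are shown for 3 beta isotypes, because they code for the tail that tells the isotypes apart, with in-frame glutamate codons in capitals.
Tubb2a: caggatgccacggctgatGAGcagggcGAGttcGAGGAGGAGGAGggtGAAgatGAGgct
Tubb4b: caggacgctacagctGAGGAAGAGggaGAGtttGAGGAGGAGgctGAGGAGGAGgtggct
Tubb5: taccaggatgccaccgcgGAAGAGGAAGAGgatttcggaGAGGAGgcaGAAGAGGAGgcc

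Of these 20 codons, glutamate took 9 in Tubb5, 10 in Tubb4b and 8 in Tubb2a. The coding parts of Tuba1a and Tuba1b differed at 23 of 1356 bases. Coding identity was 84.7% to 98.3% between alpha members, 80.2% to 85.9% between beta members and 54.4% to 57.1% between an alpha and a beta member.

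Close copies limit how far reads can be told apart. Of the 50-base windows along the transcript, 83.1% in Tuba1b, 75.5% in Tuba1a and 61.0% in Tuba1c also occurred in an annotated transcript of another gene, mostly of each other and of pseudogenes. The share was 55.5% in Tubb4b, mainly with the pseudogene Tubb4b-ps1, 49.6% in Tubb2a, mainly with Tubb2b, and 14.1% in Tubg1, mainly with Tubg2. It was 0.115% in Tubb5 and 0% in Tubb3 and Tubb6. Pseudogene values were low: Tubb4b-ps1 stood at 8.49 and 3.95 in the migrasome libraries (replicates 1 and 2), against 4.65 and 6.86 in the cytosol ones. The split among Tuba1a, Tuba1b and Tuba1c is therefore uncertain, whereas Tubb5, Tubb6 and Tubb3 hardly share sequence at this length.

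The libraries held 5228713 and 5171092 reads in migrasome replicates 1 and 2 and 7529136 and 8608369 in cytosol replicates 1 and 2. All values are normalised read counts as deposited, in which 1 read was worth 1.41 and 1.32 in the migrasome libraries and 0.776 and 0.686 in the cytosol libraries. The libraries of a group differed by more than counting noise (chi-square per degree of freedom 27.9 for migrasome and 17.6 for cytosol). Malat1, a long RNA held in the nucleus, was found in all 4 libraries, at 5102 and 3882 in the migrasome libraries, against 10534 and 5593 in the cytosol ones. Of 7 fibroblast markers tested, 1 rose (Vim) and 4 fell (Col1a1, Col1a2, Pdgfra and Pdgfrb), and Lum had no read in any library. Over all tested genes 8.68% were higher and 17.7% lower. Fewer vesicles or cells and less RNA in each cannot be told apart in bulk RNA.

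With the deposited scaling, beta tubulin mRNAs stood higher in migrasomes than in cytosol, and Tubb5 was the isotype that passed the test. With quantile normalization the Tubb4b difference turned negative (log2 -0.19), and those of Tubb5 and Tubb6 were 0.14 and 0.16. Tubb2a then stood at 0.54 and Tubb3 at 1.397. Both migrasome libraries lay above both cytosol libraries for 5 of 5 beta isotypes, for Tubg1 and for 2 of 4 alpha isotypes, 8 of 10 members in all and none below. Among all 10860 tested genes 33.3% lay above in the same way and 36.3% below. The limma test passed 1 member, Tubb5, as higher, and none as lower. Over all tested genes 26.4% passed, 8.68% passed as higher and 17.7% as lower, so 1 of 10 is near the background. The median log2 difference (migrasome minus cytosol) was 0.44 over the members, against -0.00430 over all tested genes. With quantile normalization the members' median was 0.054, below the 0.11 over all tested genes, and 5 of 10 members were positive.

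**Figure D1:**
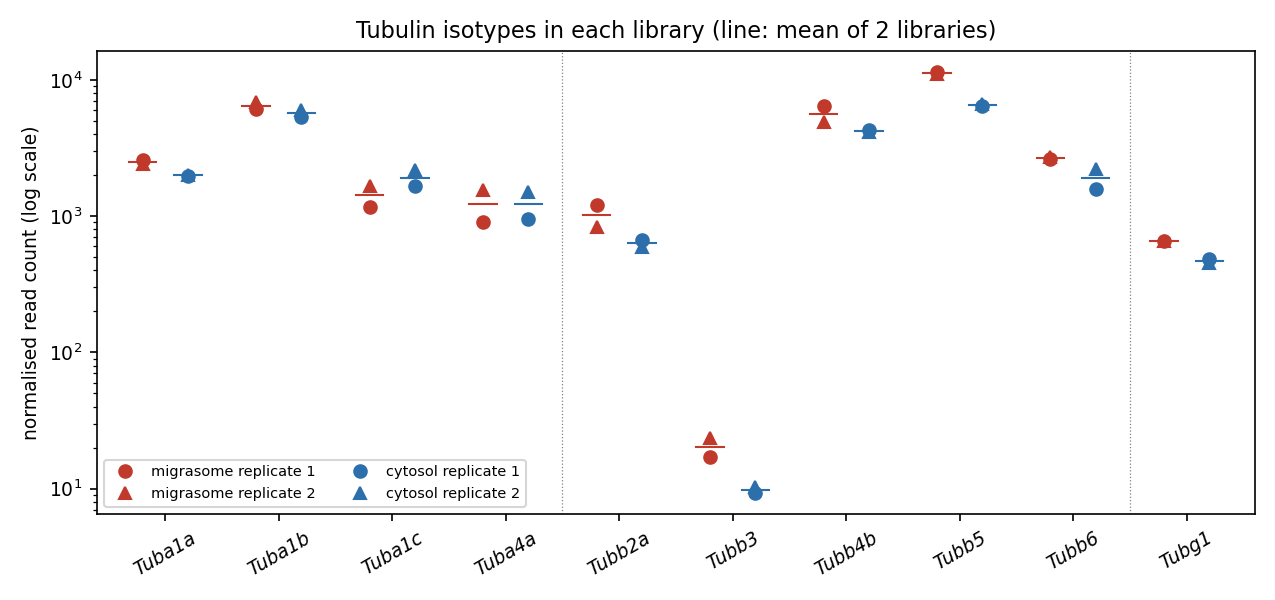
Normalised read count of each isotype (log axis) in the 2 migrasome libraries (red) and the 2 cytosol libraries (blue), with circles for replicate 1, triangles for replicate 2 and lines for the group means; dotted lines part alpha, beta and gamma. Red points lie above blue ones for the beta isotypes, and overlap them for Tuba1c and Tuba4a.

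Tubb5, the main beta isotype of dividing cells, is a protein-coding gene on chromosome 17 from 35833921 to 35838306 (minus strand, GRCm38 with GENCODE M21, as are all positions below). It stood at 11485 and 11004 in the migrasome libraries (replicates 1 and 2), against 6408 and 6719 in the cytosol ones. Both migrasome libraries were above the cytosol libraries, and the libraries of each group lay close together. The means were 11244 ± 340.2 in migrasome and 6563 ± 219.9 in cytosol (SD, n = 2 each), a 1.71-fold difference. On the log2 scale this was 0.78 ± 0.22 (SE), with a limma adjusted p of 0.031. The difference was higher than that of 91.6% of tested genes. The call was lost without cytosol replicate 1 or 2 (limma adjusted p of 0.29 and 0.25), though the log2 difference stayed at 0.74 and 0.81. It was also lost with the same total per library (log2 difference 0.50, adjusted p of 0.0672) and with quantile normalization (0.14, adjusted p of 0.53), and narrowly without the filter (adjusted p of 0.083) or the variance trend (adjusted p of 0.051). All of these are limma values.

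Tubb4b, a widely expressed beta isotype also found in cilia, is on chromosome 2 from 25222160 to 25224702 (minus strand). It had 6453 and 4887 in the migrasome libraries, against 4328 and 4171 in the cytosol ones. The migrasome libraries were both higher but differed from each other by more than the gap between the lower of them and cytosol. The log2 difference was 0.40 (95% interval -0.11 to 0.91) and did not pass (limma adjusted p of 0.21). It depended on the migrasome library kept, at 0.60 without migrasome replicate 2 and 0.20 without migrasome replicate 1.

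Tubb6, a beta isotype abundant in many non-neuronal cells, is on chromosome 18 from 67390717 to 67402749 (plus strand). It stood at 2646 and 2743 in the migrasome libraries, against 1594 and 2206 in the cytosol ones. Here the spread lay between the cytosol libraries. The log2 difference was 0.52 (95% interval 0.02 to 1.02, limma adjusted p of 0.11).

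Tubb2a, a beta isotype best known from brain, is on chromosome 13 from 34074274 to 34078007 (minus strand). It had 1215 and 837 in the migrasome libraries, against 668 and 597 in the cytosol ones, with a log2 difference of 0.67 (95% interval 0.16 to 1.19). It lay just outside the threshold (limma adjusted p of 0.055). It passed with edgeR's quasi-likelihood test (adjusted p of 0.043) and with DESeq2 (adjusted p of 0.029), and without migrasome replicate 2 (log2 difference 0.94, limma adjusted p of 0.0022). Without migrasome replicate 1 the log2 difference was 0.41 (limma adjusted p of 0.16), and with the same total per library it was 0.40 (limma adjusted p of 0.18). Without the variance trend the limma adjusted p was 0.12. Summed with its neighbour Tubb2b, whose reads can fall to either, it gave a log2 difference of 0.68 (limma adjusted p of 0.052).

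Tubb3, the beta isotype that marks neurons, is on chromosome 8 from 123411424 to 123422015 (plus strand) and was the lowest member. It stood at 16.97 and 23.7 in migrasome, from 12 and 18 reads, and at 9.31 and 10.3 in cytosol, from 12 and 15 reads. Both migrasome libraries were higher on the scale of the normalised values. The log2 difference of 0.97 had a 95% interval of -0.01 to 1.94 and did not pass (limma adjusted p of 0.12). It passed with quantile normalization (log2 difference 1.397, limma adjusted p of 0.043) and without the variance trend (limma adjusted p of 0.043), settings under which Tubb5 did not. The 10 other neuronal markers summed to 103 and 113 in migrasome and to 52.0 and 43.9 in cytosol. Of these, 3 were tested and Snap25 rose, none was at 0 in all libraries, and their part in the Tubb3 values was not tested. Epithelial markers, also low, summed to 14.1 and 15.8 in migrasome and to 4.65 and 7.54 in cytosol. Macrophage markers summed to 17.0 and 18.4 in migrasome and to 18.6 and 28.1 in cytosol. Endothelial markers overlapped, at 0 and 6.58 in migrasome and 1.55 and 2.74 in cytosol.

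None of the alpha isotypes passed the test, and with quantile normalization all 4 differences were negative, from -0.72 to -0.03. Tuba1b, the most abundant of them, is on chromosome 15 from 98931425 to 98934565 (minus strand). It had 6142 and 6837 in the migrasome libraries, against 5393 and 5982 in the cytosol ones. The migrasome libraries were higher by little, with a log2 difference of 0.19 (95% interval -0.30 to 0.68, limma adjusted p of 0.53). Tuba1a, the alpha isotype of developing neurons, lies next to it on chromosome 15 from 98949837 to 98953703 (minus strand). It had 2594 and 2407 in the migrasome libraries, against 1979.7 and 2012 in the cytosol ones, a log2 difference of 0.32 (95% interval -0.12 to 0.77, limma adjusted p of 0.24).

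Tuba1c, on chromosome 15 from 99029891 to 99038110 (plus strand), was the isotype with the most negative difference. It had 1171 and 1673 in the migrasome libraries, against 1659 and 2167 in the cytosol ones. The groups overlapped, and replicate 2 was the higher library in both. The log2 difference of -0.44 (95% interval -0.98 to 0.10) did not pass (limma adjusted p of 0.20), but it passed without migrasome replicate 2 (-0.70, limma adjusted p of 0.018). Summed into 1 gene, since they share reads, Tuba1a, Tuba1b and Tuba1c gave a log2 difference of 0.12 (limma adjusted p of 0.72).

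Tuba4a, an alpha isotype whose gene does not encode the final tyrosine of the others, is on chromosome 1 from 75214228 to 75219865 (minus strand). It had 904 and 1566 in the migrasome libraries, against 952 and 1509.6 in the cytosol ones. Replicate 2 was the higher library in both groups, by more than the groups differed, and the log2 difference was -0.01 (95% interval -0.69 to 0.66). Its exons overlap those of Stk16 on the opposite strand over 1379 bases. Stk16 stood at 341 and 263 in the migrasome libraries, against 341 and 296 in the cytosol ones, without that offset, and strand use in counting is a setting not given in the sources used here.

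Tubg1, the ubiquitous gamma tubulin, is on chromosome 11 from 101119938 to 101126419 (plus strand). It had 658 and 654 in the migrasome libraries, against 483 and 455 in the cytosol ones. The groups were apart and tight, with a log2 difference of 0.48 (95% interval 0.04 to 0.92) that did not pass (limma adjusted p of 0.094).

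**Figure D2:**
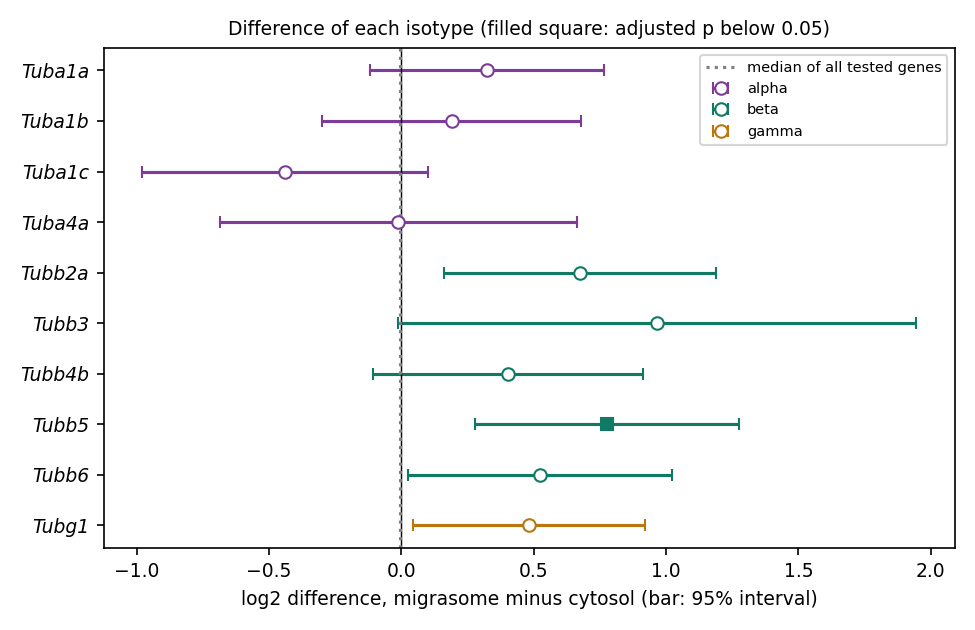
Log2 difference (migrasome minus cytosol) of each isotype with its 95% limma interval, coloured by class; the filled square marks Tubb5, which passed at an adjusted p of 0.031, and the dotted line is the median of all tested genes. With the deposited scaling, beta and gamma points lie between 0.40 and 0.97, alpha points between -0.44 and 0.32.

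Summed by class, beta tubulin stood at 21816 and 19494 in the migrasome libraries, against 13007 and 13703 in the cytosol ones. The ratio of the means was 1.55 (0.63 on the log2 scale), and the groups did not overlap. With quantile normalization the log2 ratio was 0.065, so the size of the beta difference also depended on the scaling. Alpha tubulin summed to 10810.2 and 12483 in migrasome and to 9984 and 11671 in cytosol, a ratio of 1.08, and the groups overlapped. As a share of the library, beta tubulin held 0.295% and 0.286% in the migrasome libraries, against 0.223% and 0.232% in the cytosol ones. Alpha tubulin held 0.146% and 0.183% in the migrasome libraries, against 0.171% and 0.198% in the cytosol ones. On that scale the alpha mean was thus lower in migrasome, so the direction of the alpha sum depended on the scaling.

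The beta to alpha ratio within a library does not depend on the size factor. Over values per kb of transcript it was 1.81 and 1.40 in the migrasome libraries (replicates 1 and 2), against 1.20 and 1.10 in the cytosol ones. Both migrasome libraries lay above both cytosol libraries. The gap between the lower migrasome and the higher cytosol library was smaller than the gap between the migrasome libraries. For single isotypes, Tubb5 over Tuba1b was 1.87 and 1.61 in the migrasome libraries, against 1.19 and 1.12 in the cytosol ones. These values were not divided by length. Tuba1b shared 83.1% of its 50-base windows with other genes, against 0.115% in Tubb5. The ratio of Tubb5 over Tuba1b can thus also depend on how reads with several matches were counted. An exact two-sided permutation test of that ratio gave p = 0.333, the smallest that 2 libraries against 2 allow.

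**Figure D3:**
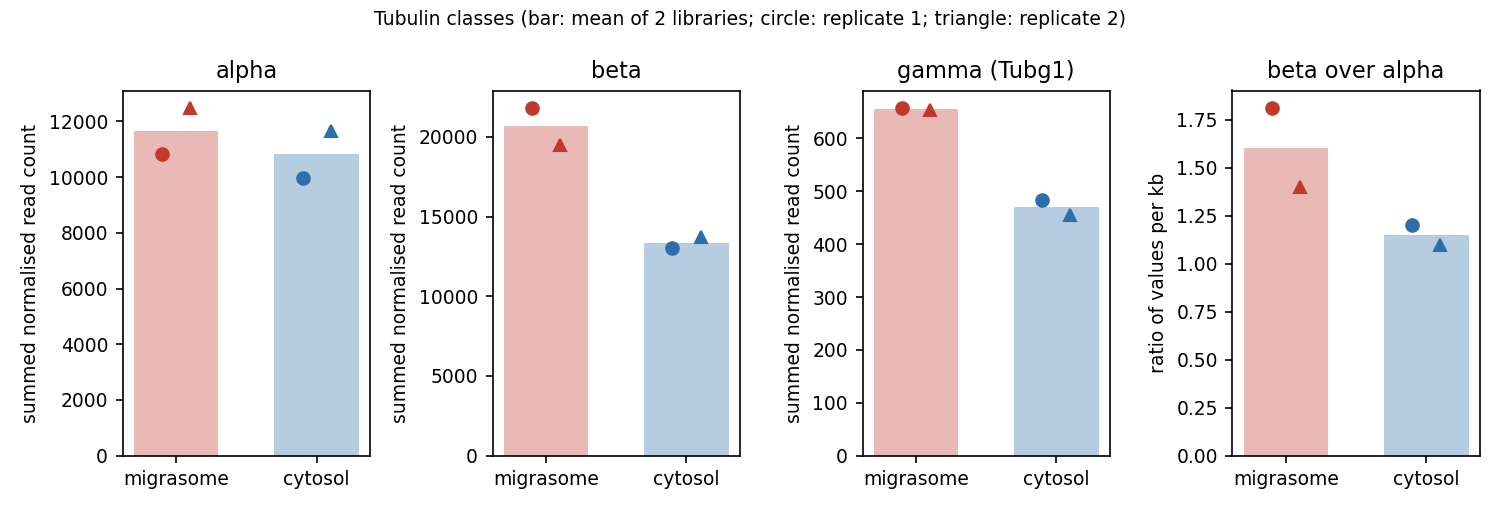
Summed normalised read counts of the alpha and beta members, the normalised read count of Tubg1, and the beta to alpha ratio of values per kb, with bars for group means and points for libraries. Beta sums are 21816 and 19494 in migrasome against 13007 and 13703 in cytosol, while alpha sums overlap.

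Within the beta class, by values per kb, Tubb5 made up 40.7% and 44.6% in the migrasome libraries, against 37.5% and 37.4% in the cytosol ones. Tubb4b made up 37.9% and 32.9% in the migrasome libraries, against 42.0% and 38.5% in the cytosol ones. Tubb5 was thus the larger share in migrasome and Tubb4b in cytosol, in every library, when values were divided by the length of the principal transcript. Undivided values put Tubb5 above Tubb4b in every library. Divided by the length of all exons, an alternative chosen after seeing the data, Tubb5 over Tubb4b was 1.12 and 1.41 in the migrasome libraries, against 0.929 and 1.01 in the cytosol ones, so the order in cytosol is uncertain. The shares of Tubb5 and Tubb4b can also depend on how reads with several matches were counted. Tubb4b shared 55.5% of its 50-base windows with other genes, against 0.115% in Tubb5. Tubb6 held 14.1% and 16.8% in the migrasome libraries, against 14.1% and 18.5% in the cytosol ones, Tubb2a between 5.47% and 7.09% in every library, and Tubb3 at most 0.136%.

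Within the alpha class, Tuba1b made up 60.02% and 59.0% in the migrasome libraries, against 57.7% and 55.6% in the cytosol ones. With quantile normalization the direction of its share reversed. Tuba1c made up 10.1% and 12.7% in the migrasome libraries, against 15.6% and 17.7% in the cytosol ones. Its share was lower in both migrasome libraries, though the exact two-sided permutation p was 0.333, the smallest possible. Tuba1a held 24.5% and 20.1% in the migrasome libraries, against 20.5% and 18.1% in the cytosol ones, and Tuba4a 5.42% and 8.29% in the migrasome libraries, against 6.25% and 8.61% in the cytosol ones.

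**Figure D4:**
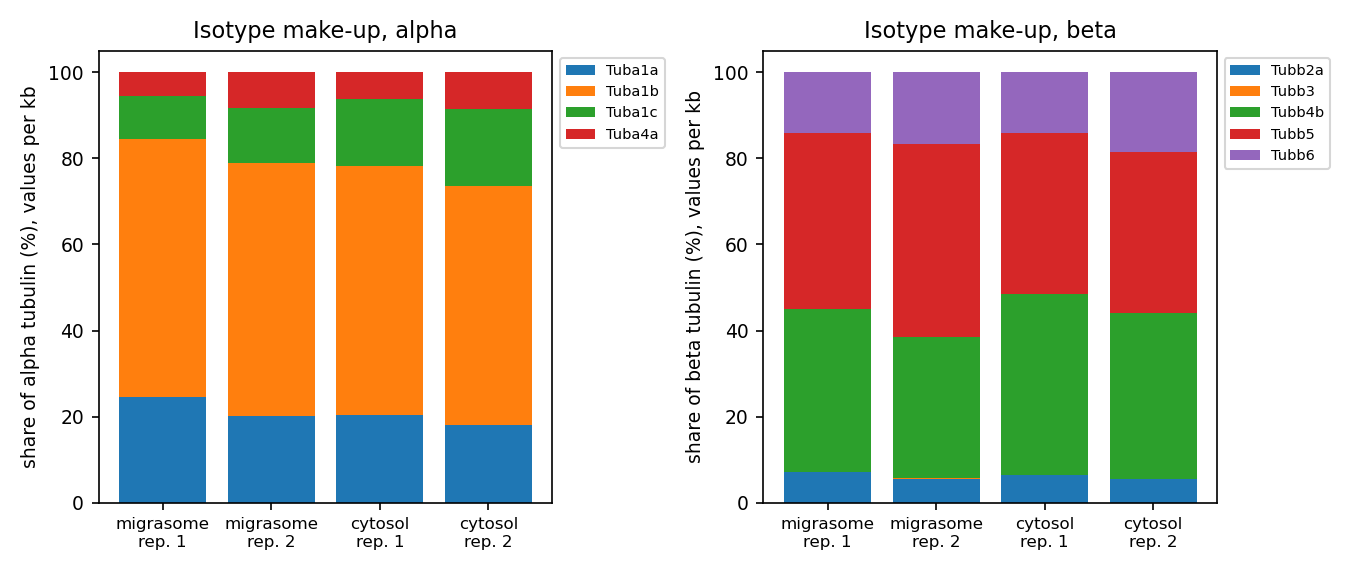
Share of each isotype in the alpha class (left) and the beta class (right), in percent of the summed values per kb, in each library. Tuba1b makes up 60.02% and 59.0% of alpha tubulin in migrasome against 57.7% and 55.6% in cytosol, and Tubb3 is too low to be seen.

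Per kb of transcript, Tubb5 was the highest isotype in migrasome at 4245 ± 128 (SD, n = 2). It was followed by Tuba1b at 3723 ± 282 and Tubb4b at 3548 ± 693, which overlapped each other. The place of Tubb5 above Tuba1b is uncertain, as it depends on the length used. All exons span 3327 bases in Tubb5, against 2649 in its transcript, and 1875 in Tuba1b, against 1743. Reads with several matches can also bear on it, since Tuba1b shared 83.1% of its 50-base windows, against 0.115% in Tubb5. In cytosol Tuba1b was highest at 3263 ± 239, followed by Tubb4b at 2659 ± 69.2 and Tubb5 at 2478 ± 83.0, and no neighbours among these 3 overlapped, with the same limit on the order of Tubb4b and Tubb5. Further down in migrasome came Tubb6 at 1533 and Tuba1a at 1387, each apart from the next. The order of Tubb6 and Tuba1a also depends on the length used. All exons span 2437 bases in Tubb6, against 1758 in its transcript, while both lengths are 1803 in Tuba1a. Below them came Tuba1c at 717, Tubb2a at 637, Tuba4a at 435 and Tubg1 at 364, in which each overlapped the next. In cytosol Tuba1a at 1107, Tubb6 at 1081 and Tuba1c at 965 overlapped each other in that order, as did Tuba4a at 433 and Tubb2a at 393. Tubg1 followed at 260.5 and Tubb3 was last in both groups. The level of Tuba4a per kb is uncertain, since its 2840-base transcript includes the stretch that overlaps Stk16.

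The other tubulin genes were low or had no read. Tuba3a, Tuba3b, Tuba8 and Tubb1 had no read in any library, below the value of 3 reads (4.24 and 3.95 in migrasome, 2.33 and 2.06 in cytosol), a floor that covers counting error only. Tubal3 and Tubg2 did not reach the minimum for a test. Tubb2b stood at 31.1 and 31.6 in the migrasome libraries, against 16.3 and 19.9 in the cytosol ones, and Tubb4a at 11.3 and 17.1 in the migrasome libraries, against 8.53 and 6.17 in the cytosol ones. Both beta genes were higher in both migrasome libraries on the scale of the normalised values. Their log2 differences of 0.77 and 0.85 did not pass (limma adjusted p of 0.14 and 0.22). Tubb2b rested on 22 and 24 reads in migrasome, against 21 and 29 in cytosol, and Tubb4a on 8 and 13, against 11 and 9. Tubb4a reached the filter value of 10 only in the migrasome libraries, so the filter favoured its direction. The centriolar tubulins did not pass either: Tubd1 stood at 43.8 and 23.7 in the migrasome libraries, against 35.7 and 41.2 in the cytosol ones, and Tube1 at 28.3 and 34.2 in the migrasome libraries, against 41.1 and 46.0 in the cytosol ones.

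Among the cofactors that fold and pair tubulins, with prefoldin, 4 of 13 rose, none fell and the other 9 missed the threshold (median log2 difference 0.57), beside 8.68% higher and 17.7% lower over all tested genes. The cofactor Tbcd, which helps to bring alpha and beta tubulin together, stood at 1399 and 1042 in the migrasome libraries, against 664 and 673 in the cytosol ones (log2 difference 0.85, limma adjusted p of 0.018). Tbce, which binds alpha tubulin, rose by 0.89, Tbca, which binds beta tubulin, by 0.76, and the prefoldin subunit gene Pfdn5 by 0.82. The calls of Tbcd, Tbce, Tbca and Pfdn5 were each lost without cytosol replicate 1 or 2. With the same total per library all but that of Pfdn5 were lost, and with quantile normalization those of Tbca and Pfdn5 were lost.

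Of 12 genes of tubulin mRNA autoregulation, 2 rose and none fell (median -0.01), beside the same 8.68% and 17.7%. Ttc5, whose product reads the coding starts shown above, had 122 and 138 in the migrasome libraries, against 116 and 147 in the cytosol ones, with overlapping groups. Scaper, which links TTC5 to the CCR4-NOT deadenylase, rose by 0.96 (limma adjusted p of 0.040), and Cnot10, a subunit of that deadenylase, by 0.67 (limma adjusted p of 0.047). The most abundant, the scaffold gene Cnot1, stood at 1409 and 1169 in the migrasome libraries, against 1202 and 1217 in the cytosol ones. Of 15 tested tubulin modifying enzymes 1 rose, none fell and 14 did not pass (median 0.34). Both counts of higher genes are near the share over all tested genes. It was Agtpbp1, which trims glutamates from tubulin tails, with a log2 difference of 0.67 (limma adjusted p of 0.042). Ttl, which restores the final tyrosine of alpha tubulin, had 349 and 339.5 in the migrasome libraries, against 303 and 319.6 in the cytosol ones. The calls of Scaper, Cnot10 and Agtpbp1 were lost without cytosol replicate 1 or 2 and with the same total per library.

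In the gamma-tubulin ring complex and its anchors, 1 of 11 rose, 2 fell and 8 did not pass (median 0.00), which is near the 8.68% higher and 17.7% lower over all tested genes. Tubgcp2, a core subunit that binds gamma tubulin, stood at 1271 and 1200.3 in the migrasome libraries, against 705 and 757 in the cytosol ones (log2 difference 0.76, limma adjusted p of 0.020). Its partner Tubgcp3 had 413 and 367 in the migrasome libraries, against 401 and 516 in the cytosol ones, which overlapped. The genes that fell were those of the large scaffold proteins that hold the complex at centrosome and Golgi, Akap9 (-1.05) and Pcnt (-1.01). The call of Tubgcp2 was lost without cytosol replicate 1 or 2, with the same total per library and without the variance trend. That of Pcnt was lost without cytosol replicate 1, and that of Akap9 without the filter or without the variance trend.

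Genes of proteins that bind microtubules held calls in both directions, as did all tested genes (8.68% higher and 17.7% lower). Of 9 lattice-binding genes tested, 3 rose and 2 fell (median 0.29). Map1b had 3793 and 3652 in the migrasome libraries, against 2094 and 2089 in the cytosol ones (log2 difference 0.83, limma adjusted p of 0.015), Map4 rose by 1.05 and the low Map2 by 1.31. Map1s (-0.90) and Mtus1 (-0.87) fell. Of 10 plus-end genes 2 rose and 2 fell (median 0.26). The 2 lower genes in each of these lists are near the share over all tested genes. Mapre1, which encodes the end-binding protein EB1, had 3123 and 3101 in the migrasome libraries, against 1639.9 and 1672 in the cytosol ones (log2 difference 0.91, limma adjusted p of 0.0094), and the microtubule polymerase gene Ckap5 rose by 0.66. Clip1 (-1.11) and Clip2 (-1.57), linkers that follow growing ends, fell. Of 11 destabilising and severing genes none rose and 1 fell, the kinesin Kif18a (-1.02). The most abundant, Stmn1, which holds tubulin dimers, had 1584 and 1814 in the migrasome libraries, against 1264 and 1589.8 in the cytosol ones, which overlapped (median of the list 0.26). Of the 20 genes called over these 7 lists, Clip1 and Clip2 kept their call under every alternative tried, 4 of the 20 kept it without cytosol replicate 1, and 5 without cytosol replicate 2.

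**Figure D5:**
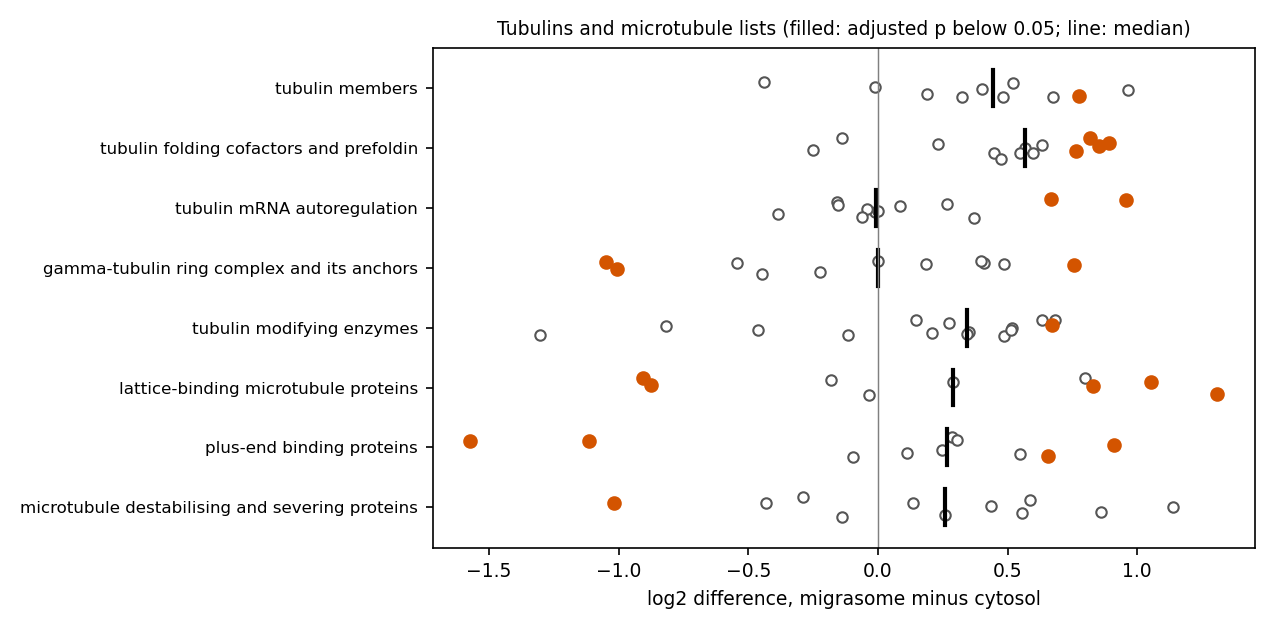
Log2 difference (migrasome minus cytosol) of each tested gene of the tubulin members and of 7 microtubule lists, with filled points for genes past a limma adjusted p of 0.05 and a line at each median. The medians run from -0.01 for autoregulation to 0.57 for folding cofactors, and calls in both directions occur in the lattice-binding, plus-end and ring complex lists.

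The genes whose pattern over the 4 libraries lay nearest to that of the summed alpha and beta values were Fkbp8, Cox5b, Atp5g3, Psmb3 and Puf60. Their distance, on the log2 scale after centring each gene, was 0.0296 to 0.0595, out of 1221 genes with a mean of at least 1000. Fkbp8 stood at 1236 and 1223 in the migrasome libraries, against 876 and 944 in the cytosol ones. Since the 5 were picked by this pattern, their log2 differences, from 0.38 to 0.46, are no separate result. None of them passed the limma test.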

How the data were processed

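Tools named in the submitters' processing notes are cutadapt, Trimmomatic, FastQC, STAR, HTSeq and DESeq, and the build is GRCm38, with no roles or versions stated. The authors deposited a signal per gene, which by its values is a read count over a library's size factor. Dividing each library by its smallest value above 0 gave whole reads for 100% of the values (tolerance 0.001) over 49568 gene symbols. Annotation, strandedness and the handling of reads with several matches are points not given in the sources used here.

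For tests the deposited signal was put on the scale log2(value + 1), on which the change of low genes is understated. The 10860 genes that reached 10 in 2 or more libraries entered limma 3.58.1 under R 4.3.3 (trended eBayes, no replicate block), and p-values were adjusted by Benjamini-Hochberg over all of them, with 0.05 as threshold. Count tests on the recovered reads, edgeR 4.0.16 and DESeq2 1.42.0, served as alternatives. Other alternatives changed the pseudocount, filter, scaling, variance trend, replicate block and each left-out library. The fit was tested on simulated data.

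Positions, transcript lengths and coding sequences came from GENCODE M21 (GRCm38), in which all 10 isotypes were found. A level per kb is the value divided by the length of the principal transcript with the longest coding part. Coding parts were aligned with Biopython 1.88. Figures were drawn with matplotlib 3.10.9. The members and lists were chosen with earlier results of these data known. Genes named are all isotypes, the other tubulin genes, and from each microtubule list those past the threshold and up to 4 of the most abundant. The pattern rule took the 5 genes nearest to the summed alpha and beta values over the 4 libraries, among those with a mean of at least 1000.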

Additional observations from a re-analysis of the deposited data

How the results depend on the processing

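Without a filter on low values, 1741 genes passed (393 higher), with 0 isotypes and 10 list genes (6 higher, 4 lower). With the same total per library, where the median of all tested genes shifted to -0.27, 322 genes were higher, 0 isotypes passed, and 3 list genes were higher and 11 lower. The members' median was then 0.17. The log2 ratios of the sums were then -0.16 for alpha, 0.35 for beta and 0.21 for gamma. With quantile normalization the median was 0.11 over all tested genes and 0.054 over the members, and 4 list genes were lower. The alpha and beta sums then gave -0.37 and 0.065. The share of Tuba1b in alpha tubulin then had a difference of -2.34 percentage points, against 2.85 as deposited. Without a trend 483 genes and 8 list genes were higher. The edgeR quasi-likelihood test and DESeq2 each passed 2 isotypes. With a replicate block 4423 genes passed (1802 higher), 3 isotypes (Tubb5, Tubb2a and Tubb6, all higher) and 21 list genes higher. No label states a pairing by replicate number, so the block was not used, though the deviations of same-numbered libraries correlated at 0.23 over genes. Leaving out each library, with the lone sample of its group assumed to vary like the other group, gave 1414 to 4885 called genes (231 to 2085 higher, 1147 to 2800 lower), 0 to 4 isotypes (0 to 3 higher, 0 to 1 lower) and 4 to 31 list genes (0 to 21 higher, 3 to 10 lower). The difference in the beta to alpha ratio per kb was 0.25 to 0.66, against 0.46 with all libraries, and stayed positive throughout. The causes were not tested. Under the alternatives there were 143 values for the isotypes. These include the sum of Tuba1a, Tuba1b and Tuba1c, entered under each of these genes, and that of Tubb2a and Tubb2b, entered under Tubb2a. Of the 143 values, 128 kept their side of the threshold, 6 lost the call of Tubb5 and 9 gained one. Among uncalled isotypes 8 values had the other sign, and the one entered under Tuba1c was the sum. Tubb3 rests on 12 to 18 reads per library.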
